A study of Mus musculus with 8 samples.

Results

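Interferon-stimulated genes are the genes that a cell turns on after an interferon binds its receptor, and 34 of them were followed here in mouse hematopoietic stem cells. The 34 members are named genes of the antiviral response, taken by symbol from the deposited table. All 34 were among its 52224 genes, and all 34 passed the filter on low values that left 37414 genes for testing. The cells were sorted from mouse bone marrow as CD48-CD150+ cells of the LSK fraction (lineage-negative, Sca-1-positive, Kit-positive), the gate used for long-term stem cells. There were 4 libraries of genotype DekTg and 4 of genotype DekCon, named for Dek, a chromatin-binding protein. The labels give no allele, promoter, age or sex for either genotype and no treatment beyond the genotype. Nothing in the labels says that the 4 libraries of a group came from separate mice, so p-values measure only the spread between these libraries, which may be technical.

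Type I interferons bind the receptor chains Ifnar1 and Ifnar2, whose kinases phosphorylate Stat2 among other proteins. Stat2 and Irf9 act in a complex that binds a short element in target promoters, and the targets then encode proteins that cut, bind, edit or trap viral RNA and particles. In hematopoietic stem cells, type I interferon is known to drive dormant cells into cycle, long exposure is known to impair them, and stem cells are known to hold part of this gene set at a steady level without infection.

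The element that the complex binds was searched as GAAANNGAA, in which N is any base, on both strands of the RefSeq promoter windows of build GRCm38.p6. A window runs from 250 bases before to 50 bases after an annotated gene start. Of the 34 members, 25 had a window, and 16 of these 25 (64%) held at least 1 match, against 9.18% of the genes tested that had a window and 8.56% of all 32851 windows. Mx1, Mx2, Parp9, Parp14, Rtp4, Oas2, Ifi27, Usp18 and Ifi204 had no window in the table. The windows of 6 members are shown because their genes had the smallest p-values among members with a match, and they show where the element lies relative to the gene start. Each is written 5′ to 3′ along the gene's strand, with the matches in capitals. The windows are chr19:34583279-34583578 (plus strand) for Ifit3, chr19:34640639-34640938 (plus) for Ifit1, chr3:151749861-151750160 (minus) for Ifi44, chr12:26456403-26456702 (minus) for Rsad2, chr11:88999153-88999452 (plus) for Trim25 and chr7:140955912-140956211 (minus) for Ifitm2.
Ifit3: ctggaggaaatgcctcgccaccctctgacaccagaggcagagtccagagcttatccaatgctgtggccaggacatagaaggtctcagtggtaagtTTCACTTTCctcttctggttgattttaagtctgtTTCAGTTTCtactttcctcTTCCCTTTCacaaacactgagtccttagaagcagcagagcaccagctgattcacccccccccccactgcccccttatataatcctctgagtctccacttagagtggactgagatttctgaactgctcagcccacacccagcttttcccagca
Ifit1: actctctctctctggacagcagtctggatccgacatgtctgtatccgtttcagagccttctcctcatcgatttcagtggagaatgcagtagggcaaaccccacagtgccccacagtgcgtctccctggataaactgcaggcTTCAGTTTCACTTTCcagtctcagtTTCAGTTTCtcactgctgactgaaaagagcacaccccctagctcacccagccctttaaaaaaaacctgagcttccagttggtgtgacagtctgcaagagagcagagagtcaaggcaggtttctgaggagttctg
Ifi44: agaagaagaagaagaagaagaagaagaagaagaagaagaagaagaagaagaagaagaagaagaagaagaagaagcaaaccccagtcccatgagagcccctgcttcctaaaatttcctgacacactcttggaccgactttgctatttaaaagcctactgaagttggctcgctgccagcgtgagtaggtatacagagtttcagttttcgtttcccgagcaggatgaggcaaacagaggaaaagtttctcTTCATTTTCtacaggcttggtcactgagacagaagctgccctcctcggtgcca
Rsad2: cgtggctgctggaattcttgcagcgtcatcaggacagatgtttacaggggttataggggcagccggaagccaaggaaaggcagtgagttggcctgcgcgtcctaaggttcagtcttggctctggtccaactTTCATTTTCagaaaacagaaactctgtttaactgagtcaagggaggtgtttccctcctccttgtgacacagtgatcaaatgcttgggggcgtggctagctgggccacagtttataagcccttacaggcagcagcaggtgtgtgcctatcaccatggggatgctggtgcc
Trim25: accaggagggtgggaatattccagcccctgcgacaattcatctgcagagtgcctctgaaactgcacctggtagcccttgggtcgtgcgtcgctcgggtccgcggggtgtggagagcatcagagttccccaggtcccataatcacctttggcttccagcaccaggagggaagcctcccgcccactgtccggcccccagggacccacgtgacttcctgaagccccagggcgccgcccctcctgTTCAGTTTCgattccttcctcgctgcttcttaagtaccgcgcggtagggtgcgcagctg
Ifitm2: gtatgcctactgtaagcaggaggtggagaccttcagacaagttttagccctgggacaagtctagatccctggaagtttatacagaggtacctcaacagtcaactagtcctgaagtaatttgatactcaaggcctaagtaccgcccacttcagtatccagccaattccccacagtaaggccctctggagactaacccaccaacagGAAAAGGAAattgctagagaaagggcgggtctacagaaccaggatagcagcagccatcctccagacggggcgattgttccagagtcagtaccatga
In Ifit3 and Ifit1 the window held 3 matches on the strand opposite to the gene, and in Ifit1 the first pair overlapped, which gives the longer run of capitals. Ifi44, Rsad2 and Trim25 held 1 match each on the opposite strand, and Ifitm2 held 1 on its own strand. The 2 windows of Ifit2 held no match. A match is a description of the letters and not evidence that a factor binds there. The 16 members with a match, none of them Ifit2, had a median log2 fold change (DekTg over DekCon) of 0.07, and the 8 with a window and no match, Ifit2 left out, had 0.11.

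**Figure D1:**
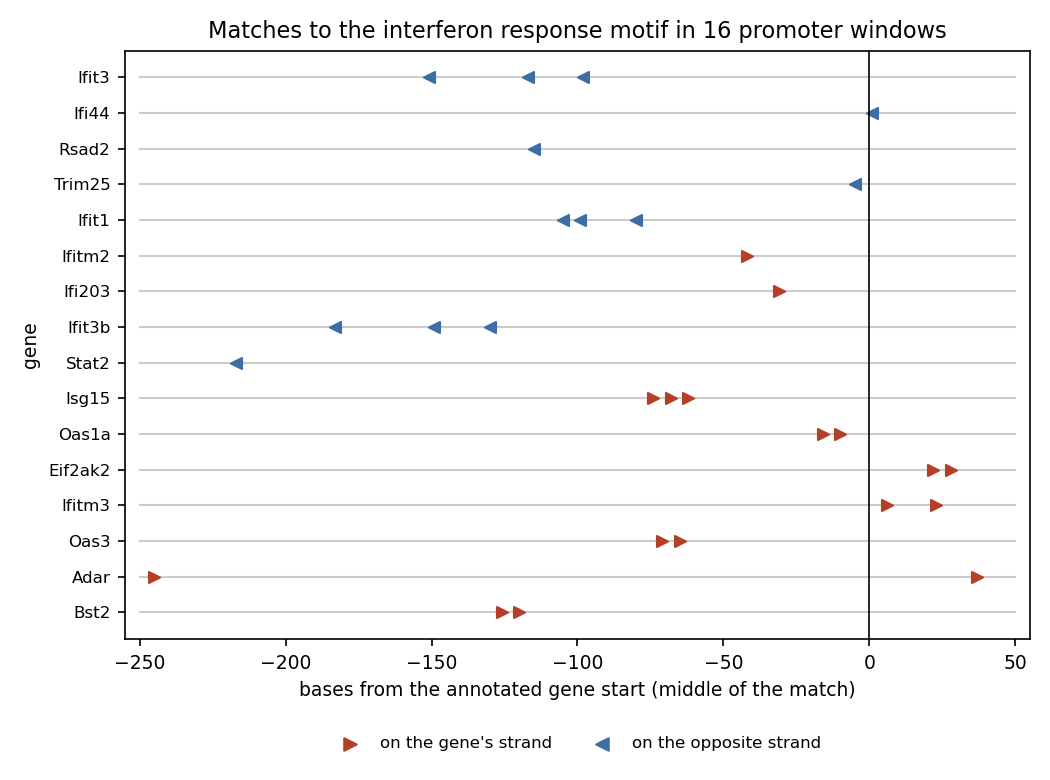
Positions of the GAAANNGAA matches in the promoter windows of the 16 members that hold one. The x axis is the distance in bases of the middle of the match from the annotated gene start, and triangles point along the strand of the match. The 3 matches of Ifit3 lie at -151, -117 and -98 and those of Isg15 at -74, -68 and -62, while the match of Ifi44 lies at 1.

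Each deposited value is a gene count over the size factor of its library, termed a normalized read count below. Gene length is not taken into account, so levels of different genes are compared only per kilobase of exon. Recovered reads per library ranged from 2525884 to 4101132, and members had between 1 and 3545 reads in a library (Ifit2 apart). The reads come from amplified cDNA without molecular identifiers, so their number does not measure all of the error. Dek was listed at 2700, 2296, 1862 and 2710 in DekTg-1 to DekTg-4, against 477, 539, 632 and 395 in DekCon-1 to DekCon-4. All 4 DekTg values of Dek are among 25 of 417792 values, in 6 genes, that are not a whole number of reads (tolerance 0.001 reads). Each of the 4 becomes whole when 1700, 1400, 1100 and 1800 are taken off in library order. The sort markers were detected, with Kit at 1181 to 1557 in DekTg and 1072 to 1396 in DekCon. Slamf1, which encodes CD150, lay at 190.04 to 213 in DekTg and 228 to 300.4 in DekCon. Its DekTg libraries were all below its DekCon libraries, with a log2 fold change of -0.40 (SE 0.13, limma adjusted p = 0.711). Transcripts of Cd48, whose protein the gate excludes, were listed at 174 to 230.0 in DekTg and 128 to 259 in DekCon. DekCon-2 stood apart, with Cd34 at 624 against 1109 to 2265 in the other 3 DekCon libraries and Procr, a stem cell surface receptor, at 13.4 against 40.5 to 73.5. Libraries 1 and 4 of each group were more alike than any other pair of the group, with a chi-square per degree of freedom of 1.67 in DekTg and 1.58 in DekCon, against 3.62 to 7.83 for the other pairs. Libraries 1 and 4 differed by more than the sampling of reads alone. Amplification also adds to such a difference, so this does not show that they came from separate samples. They were kept as separate libraries.

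The interferon-stimulated genes gave 1 gene past the threshold, Ifit2, for which 7 of the 8 listed values are not a whole number of reads. Of the 34 members 1 passed limma's test (Benjamini-Hochberg adjusted p under 0.05 over all genes tested), a rule that called 0.0347% of all genes tested, or 13, with 0.0267% higher and 0.00802% lower in DekTg. Without Ifit2, 0 of 33 passed, and 5 of the 33 had an unadjusted limma p under 0.05. The same unadjusted rule called 6.93% of all genes tested. Those 5 genes were Ifit3, Oas2, Ifi44, Rsad2 and Rtp4, all with higher means in DekTg. By direction, the unadjusted rule called 3.15% of all genes as higher in DekTg and 3.78% as lower. On the recovered reads, which leave out Ifit2 and the rest of the 6 genes, edgeR's quasi-likelihood test and DESeq2 each called 0 members. Over all genes entered, edgeR called 9, of which 8 were among the 13 of limma, and DESeq2 called 14, of which 6 were. The 13 hold genes that neither test entered, Ifit2 among them, so the share of 0.0347% includes calls among the 6 genes. With the 6 genes left out, limma called 8, of which 7 were higher and 1 lower in DekTg. All 8 were among the 13, and they are the closer comparison.

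Without Ifit2, 24 of the 33 members had a log2 fold change above 0, against 50.6% of all genes tested. The median of the 33 was 0.18, against 0.0057 over all genes tested. The genes are not independent of each other, and the SD between libraries of a group of the members' median deviation was 0.17 on the log2 scale. The median fell to 0.084 without DekTg-4, to 0.12 without DekCon-2 and to 0.12 without DekCon-3. It was 0.11 with libraries 1 and 4 of each group averaged. With Ifit2 as listed, 25 of 34 were above 0. Without Ifit2, the groups did not overlap in 3 of 33 members, with Ifit1 and Ifit3 higher in all DekTg libraries and Stat2 lower in all of them. The listed values of Ifit2 do not overlap either, but they do once shifted to whole reads, as given with that gene. Over all genes tested, 3.97% did not overlap, 2.09% with all DekTg libraries above and 1.88% with all below. In bulk libraries such as these, a change in the share of cells that express a gene and a change in its RNA per cell cannot be told apart.

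**Figure D2:**
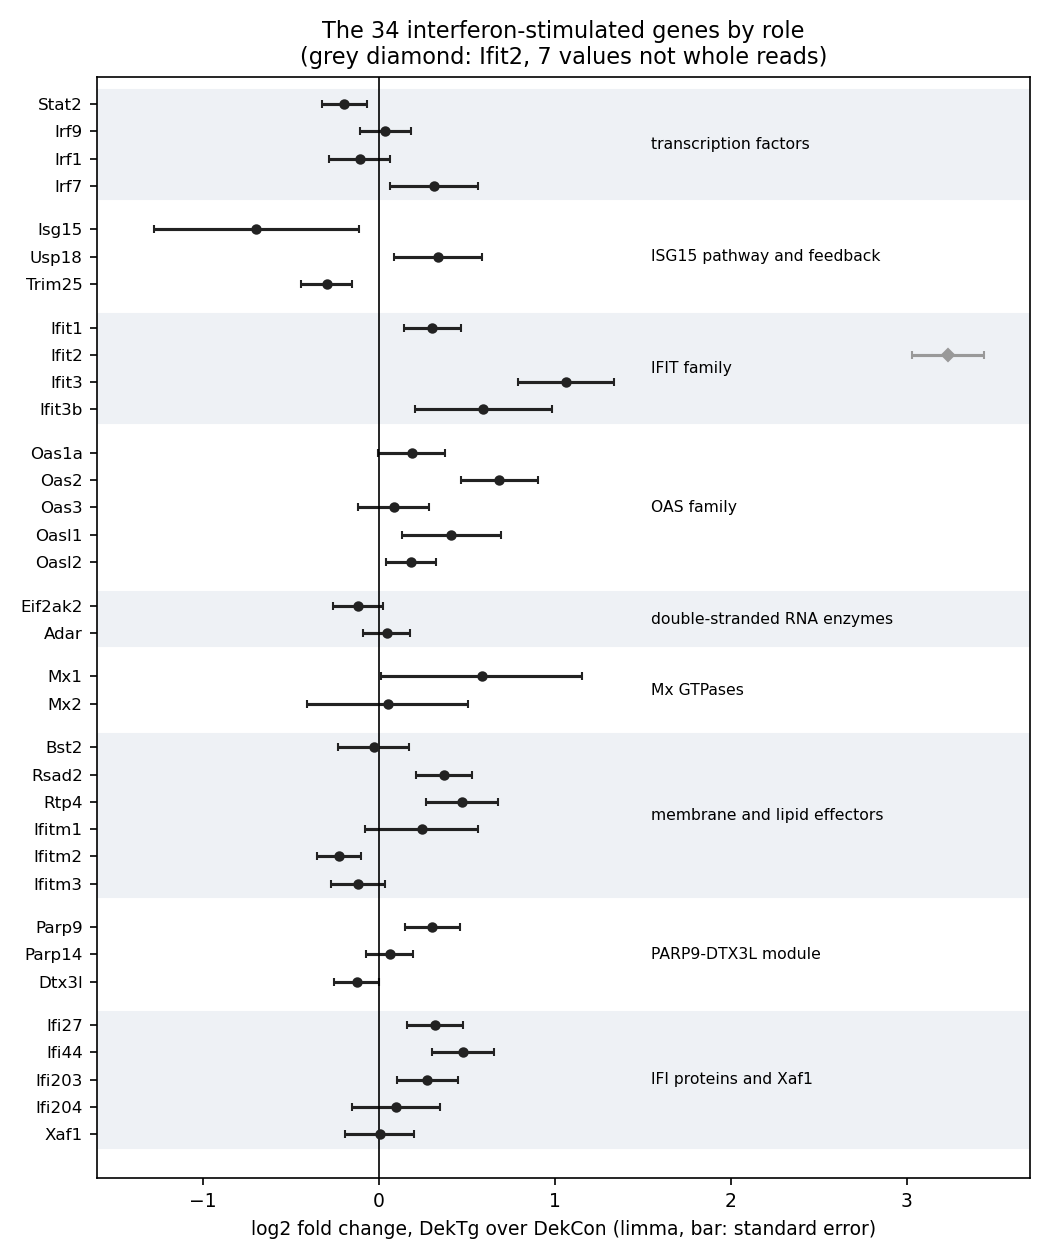
Log2 fold change of the 34 members, DekTg over DekCon, grouped by role. Points are limma estimates on log2(normalized read count + 1), bars are standard errors, and the grey diamond is Ifit2 as listed. Ifit2 stands at 3.23, Ifit3 at 1.06, and Isg15 is the lowest at -0.70.

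Ifit2, which encodes an RNA-binding protein with tetratricopeptide repeats, lies at chr19:34550694-34576419 on the plus strand of GRCm38. Its listed normalized read counts were 172.5, 108.1, 165.0 and 168.2 in DekTg-1 to DekTg-4, against 19.9, 13.6, 13.6 and 14.2 in DekCon-1 to DekCon-4. All listed DekTg values exceed all listed DekCon values. The listed means were 153 ± 30.4 in DekTg and 15.3 ± 3.04 in DekCon (SD, n = 4 each), with a log2 fold change of 3.23 (SE 0.21, limma adjusted p = 3.86e-07). Of these 8 values 7 are not a whole number of reads, and only that of DekTg-2, 90 reads, is. In every other member all 8 values are whole.

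Each of the 7 values becomes a whole number of reads, within 5e-05 reads, when it is shifted by 1 particular multiple of 10, and no other multiple of 10 within 200 does so. The shift is a subtraction of 100 in DekTg-1, DekTg-3 and DekTg-4. It is an addition of 60 in DekCon-1, 150 in DekCon-2, 90 in DekCon-3 and 80 in DekCon-4. The shifted values are 72.5, 108.1, 65.0 and 68.2 in DekTg-1 to DekTg-4, against 79.9, 163.6, 103.6 and 94.2 in DekCon-1 to DekCon-4. The shifted groups overlap, since DekTg-2 lies above 3 of the DekCon libraries. The shifted means are 78.5 ± 19.99 in DekTg and 110.3 ± 36.9 in DekCon (SD, n = 4 each). The log2 fold change of the shifted values is -0.46 (SE 0.22, limma adjusted p = 0.712), the opposite direction to the listed values. Of all 25 values that are not whole, 24 likewise have exactly 1 multiple of 10 within 2000 that makes them whole, the exception being a Csf2 value. How these values came about is not given in the sources used here, and the shift is arithmetic on the listed numbers rather than a known original. No direction of Ifit2 is therefore given as a result here.

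**Figure D3:**
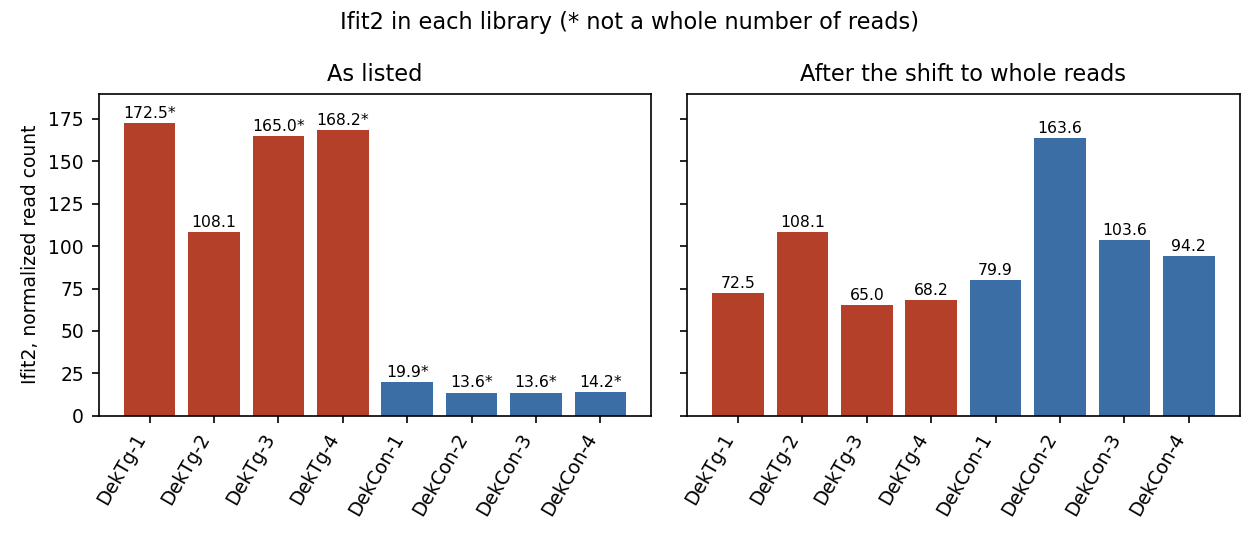
Normalized read count of Ifit2 in each library, as listed (left) and after the shift to a whole number of reads (right), with asterisks on values that are not whole. DekTg bars are red and stand left of the blue DekCon bars, both axes start at 0, and each bar is 1 library. As listed, DekTg lies between 108.1 and 172.5 and DekCon between 13.6 and 19.9, while the shifted values run between 65.0 and 108.1 in DekTg and between 79.9 and 163.6 in DekCon.

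The other 3 members of the IFIT family, which bind viral RNA and block its translation, all had higher means in DekTg, and none passed the test. Ifit3, whose human counterpart stabilises IFIT1 on RNA, had 32.97, 46.8, 24.3 and 50.4 normalized read counts in DekTg-1 to DekTg-4, against 16.5, 14.4, 16.02 and 23.2 in DekCon-1 to DekCon-4. All 4 DekTg libraries were above all 4 DekCon libraries, DekTg-3 by the least. Ifit3 averaged 38.6 ± 12.2 in DekTg and 17.5 ± 3.88 in DekCon (SD, n = 4 each), with a log2 fold change of 1.06 (SE 0.27, limma adjusted p = 0.639). Ifit1, which binds RNA whose cap lacks methylation, had 74.2, 93.7, 67.9 and 73.5 in DekTg, against 62.1, 62.2, 60.3 and 63.3 in DekCon. The groups did not overlap here either, and the DekCon libraries lay within 60.3 to 63.3. Ifit1 had a log2 fold change of 0.30 (SE 0.16, limma adjusted p = 0.740). Ifit3b lay between 10.7 and 18.9 in DekTg and between 3.83 and 13.9 in DekCon.

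Ifit3 and Ifit3b both lie on chromosome 19 and are close copies of each other, so their separate counts are uncertain. Their transcripts are 81.2% identical, and 51.2% of the 50-base windows of Ifit3 and 44.5% of those of Ifit3b occur in the other. The sum of both genes was 44.5, 62.5, 34.9 and 69.3 in DekTg-1 to DekTg-4, against 29.2, 18.2, 24.5 and 37.0 in DekCon-1 to DekCon-4. The summed groups overlap, because DekTg-3 lies below DekCon-4. Ifit2 and Ifit1 share no such window with Ifit3.

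**Figure D4:**
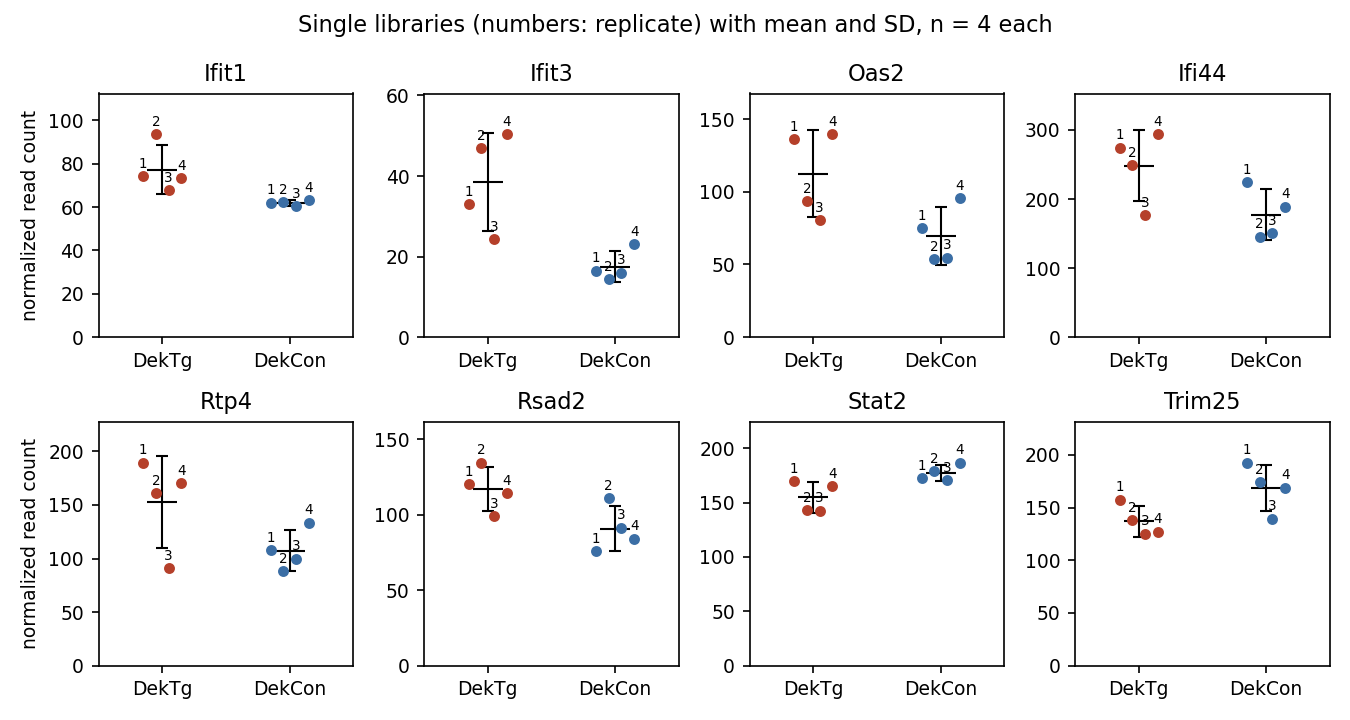
Normalized read counts of 8 members in each library, with the mean and SD of 4 libraries per group and the library number above each point. DekTg (red) stands left of DekCon (blue), and every axis starts at 0. Ifit1 and Ifit3 are higher in all DekTg libraries (67.9 or more against 63.3 or less for Ifit1), Stat2 is lower in all of them, and in the other 5 the groups overlap.

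The 5 members of the OAS family, of which the synthetases make the 2′-5′ oligoadenylates that switch on RNase L, all had log2 fold changes above 0, between 0.09 and 0.69, and none passed the test. Oas3, the lowest of them, was at -0.04 without DekTg-1 and at -0.03 without DekTg-4. Oas2 had 136, 93.7, 80.5 and 139.6 normalized read counts in DekTg-1 to DekTg-4, against 74.8, 53.6, 54.7 and 95.7 in DekCon-1 to DekCon-4. DekTg-1 and DekTg-4 were above every DekCon library, and DekCon-4 was above DekTg-2 and DekTg-3, so the groups overlap. Oas2 had a log2 fold change of 0.69 (SE 0.22, limma adjusted p = 0.711). Oas1a lay between 94.1 and 148 in DekTg and between 82.0 and 152 in DekCon, and Oas3 between 66.0 and 121 in DekTg and between 76.3 and 105 in DekCon. Oasl1, an inhibitor of Irf7 translation in mice, lay between 19.2 and 43.0 in DekTg and between 17.7 and 31.1 in DekCon. Oasl2 lay between 265 and 389.5 in DekTg and between 244 and 315 in DekCon.

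The 4 transcription factors had log2 fold changes of both signs, between -0.19 and 0.31, and none passed the test. Stat2, part of the complex that binds the promoter element, had 169.8, 143, 143 and 165 normalized read counts in DekTg-1 to DekTg-4, against 172, 179, 171 and 187 in DekCon-1 to DekCon-4. Every DekTg library was below every DekCon library, with DekTg-1 close to DekCon-3. Stat2 had a log2 fold change of -0.19 (SE 0.13, limma adjusted p = 0.785). Irf9, the DNA-binding subunit of that complex, had 397, 311, 299.9 and 403 in DekTg, against 356, 358, 274 and 385 in DekCon, and the groups overlapped, with DekTg-1 and DekTg-4 above every DekCon library. Irf9 had a log2 fold change of 0.04 (SE 0.14, limma adjusted p = 0.971). Irf7, which amplifies type I interferon transcription, had 111, 54.1, 67.0 and 136 in DekTg, against 65.9, 82.3, 52.8 and 79.5 in DekCon. DekTg-1 and DekTg-4 were the highest of the 8 libraries, and DekTg-2 and DekTg-3 lay within the DekCon range. Irf7 had a log2 fold change of 0.31 (SE 0.25, limma adjusted p = 0.818). Irf1, a factor that also answers interferon gamma, lay between 248 and 282 in DekTg and between 181 and 363 in DekCon.

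Of the ISG15 pathway and its feedback, none passed the test. Isg15, a ubiquitin-like protein joined to other proteins, had only 4.95, 1.201, 3.88 and 6.30 normalized read counts in DekTg-1 to DekTg-4, against 3.80, 12.4, 1.88 and 16.2 in DekCon-1 to DekCon-4. The groups overlap, and DekCon-2 and DekCon-4 were the highest. At these levels, with as little as 1 read in a library, its log2 fold change of -0.70 (SE 0.58, limma adjusted p = 0.826) is poorly determined. Usp18, the protease that removes Isg15 and blocks receptor signalling, had 101, 86.5, 72.8 and 90.3 in DekTg, against 48.2, 133, 51.8 and 67.1 in DekCon. All DekTg libraries were above 3 of the DekCon libraries and below DekCon-2. Usp18 had a log2 fold change of 0.34 with all libraries (SE 0.25, limma adjusted p = 0.811) and 0.65 without DekCon-2, where it did not pass the test either (adjusted p = 0.867). Trim25, a ubiquitin ligase that acts on the RNA sensor RIG-I, had 157, 138, 125 and 127 in DekTg, against 193, 174, 139 and 169 in DekCon. Only DekTg-1 exceeded a DekCon library. Trim25 had a log2 fold change of -0.30 (SE 0.14, limma adjusted p = 0.717).

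Among the effectors at membranes and lipids, the IFITM genes had the highest levels of all members per kilobase of exon. Per kilobase, Ifitm2 averaged 1759 ± 226 normalized read counts in DekTg and 2049.6 ± 168 in DekCon (SD, n = 4 each, as for the levels that follow). Ifitm1 averaged 1727 ± 83.9 per kilobase in DekTg and 1706 ± 957 in DekCon, and Ifitm3 averaged 1374 ± 169.7 in DekTg and 1513 ± 367 in DekCon. The next gene, Ifi27, averaged 154 ± 32.3 per kilobase in DekTg and 121 ± 7.12 in DekCon, and the lowest, Mx1, 2.37 ± 1.57 in DekTg and 1.54 ± 1.03 in DekCon. In DekCon the SD of Ifitm1 covers the gaps between the 3 IFITM genes.

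The IFITM proteins keep viral and cellular membranes from fusing. Ifitm1 had 2016, 1798, 1859 and 1886 normalized read counts in DekTg-1 to DekTg-4, against 2737, 634, 1359 and 2736 in DekCon-1 to DekCon-4. The DekTg libraries lay close together inside the DekCon range, and DekCon-2 was the lowest of all. The log2 fold change of Ifitm1 came to 0.24 (SE 0.32, limma adjusted p = 0.896), and -0.20 without DekCon-2 (adjusted p = 0.945). Ifitm2 had 1079, 1368, 1123 and 1038 in DekTg, against 1284, 1502, 1259 and 1324 in DekCon. Only DekTg-2 exceeded a DekCon library. Ifitm2 had a log2 fold change of -0.23 (SE 0.12, limma adjusted p = 0.749), and 40.9% of its exon bases are shared with the annotated gene Gm45717 on the same strand, so its count is uncertain. Ifitm3 had 1004, 983, 759.9 and 981 in DekTg, against 894, 1398, 887 and 925 in DekCon. DekCon-2 was the highest and DekTg-3 the lowest. Ifitm3 had a log2 fold change of -0.12 (SE 0.15, limma adjusted p = 0.892), and 0.04 without DekCon-2 (adjusted p = 0.986).

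Rsad2 (viperin), an enzyme that makes a chain-ending nucleotide, had 120.3, 135, 99.0 and 114 normalized read counts in DekTg-1 to DekTg-4, against 76.1, 111, 91.4 and 84.1 in DekCon-1 to DekCon-4. The groups overlap only through DekTg-3 and DekCon-2. Rsad2 had a log2 fold change of 0.37 (SE 0.16, limma adjusted p = 0.711). Rtp4, a receptor chaperone that also dampens interferon responses in mice, had 189.6, 161, 91.2 and 170.1 in DekTg, against 108, 88.0, 99.9 and 134 in DekCon. DekTg-3 lay inside the DekCon range and the other DekTg libraries above it. Rtp4 had a log2 fold change of 0.47 (SE 0.20, limma adjusted p = 0.711), and 13.9% of its exon bases are shared with Gm45338. Bst2 (tetherin), which holds budding virus at the cell surface, had 119.5, 67.3, 65.0 and 98.7 in DekTg, against 95.1, 104, 69.7 and 81.0 in DekCon. The groups overlap, with DekTg-1 the highest and DekTg-3 the lowest library, and the log2 fold change of Bst2 came to -0.03 (SE 0.20, limma adjusted p = 0.986).

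The IFI genes and Xaf1 all had log2 fold changes above 0, between 0.0044 and 0.48, and none passed the test. Xaf1, the lowest, was at -0.18 without DekTg-4, and Ifi204 at -0.08 without DekCon-2. Ifi44 had 274, 249, 177 and 294 normalized read counts in DekTg-1 to DekTg-4, against 224, 145, 151 and 189 in DekCon-1 to DekCon-4. DekTg-3 lay inside the DekCon range and the other DekTg libraries above it. Ifi44 had a log2 fold change of 0.48 (SE 0.18, limma adjusted p = 0.711). Ifi27, a small mitochondrial protein, had 254, 234, 157 and 260.4 in DekTg, against 186, 167, 171 and 188 in DekCon. DekTg-3 was the lowest of the 8 libraries and the other DekTg libraries the highest, and the log2 fold change of Ifi27 came to 0.32 (SE 0.16, limma adjusted p = 0.720). Ifi203, of the family of interferon-inducible nucleic acid binding proteins that also holds Ifi204, had 452, 474, 379 and 487 in DekTg, against 480.5, 278, 295 and 470.0 in DekCon. DekCon-2 and DekCon-3 were low and the groups overlap, with a log2 fold change of 0.27 (SE 0.17, limma adjusted p = 0.778). Ifi204 lay between 28.8 and 34.9 in DekTg and between 20.1 and 46.2 in DekCon. Xaf1, which antagonises an inhibitor of apoptosis, lay between 76.7 and 141 in DekTg and between 81.0 and 118 in DekCon.

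The remaining members are enzymes and GTPases, and in each of these genes the groups overlapped. Adar, which edits adenosine to inosine in double-stranded RNA, had 198, 173, 165 and 190.04 normalized read counts in DekTg-1 to DekTg-4, against 156, 204, 166 and 179 in DekCon-1 to DekCon-4. Its libraries showed no separation, with a log2 fold change of 0.05 (SE 0.13, limma adjusted p = 0.959), and 16.8% of its exon bases overlap Chrnb2 on the other strand. Eif2ak2 (PKR), the kinase that halts translation on double-stranded RNA, lay between 118 and 161 in DekTg and between 136 and 169 in DekCon. Parp9, which forms a ubiquitin ligase with Dtx3l, had 221, 237, 177 and 234 in DekTg, against 175, 219, 138 and 175 in DekCon. Only DekCon-2 reached into the DekTg range, and the log2 fold change of Parp9 came to 0.30 (SE 0.16, limma adjusted p = 0.727). Dtx3l, whose exons overlap those of Parp9 on the other strand over 458 bases, lay between 314 and 409.6 in DekTg and between 332 and 409.6 in DekCon. Parp14, an ADP-ribosyltransferase, lay between 144 and 156 in DekTg and between 127 and 169 in DekCon. The Mx GTPases, which block viral nucleocapsids, had few reads, with Mx1 at 3.604 to 14.6 in DekTg and 0.957 to 10.03 in DekCon, and Mx2 at 3.604 to 21.4 in DekTg and 6.60 to 13.9 in DekCon.

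The members also differed between libraries of the same genotype. Libraries 1 and 4 are set against 2 and 3 here because of the likeness found in these same data. The members are not independent of each other, so the shares below are a description. In DekTg, 18 of the 33 members without Ifit2 (54.6%) were higher in both libraries 1 and 4 than in both 2 and 3, against 20.5% of all genes tested. In DekCon this held for 11 of 33 (33.3%), against 19.1% of all genes tested. Of the 33 members, 28 in DekTg-1, 17 in DekTg-2, 4 in DekTg-3 and 28 in DekTg-4 lay above their own mean over 8 libraries, against 15 in DekCon-1, 19 in DekCon-2, 4 in DekCon-3 and 20 in DekCon-4. The same count was not made over all genes tested. The median log2 deviation of all genes tested lay between 0.0093 (DekCon-2) and 0.042 (DekTg-1). That of the 33 members lay between -0.29 (DekCon-3) and 0.26 (DekTg-4). The libraries with the fewest members above their means were DekTg-3 and DekCon-3, and the labels do not say that a number marks anything shared. Socs3, a feedback inhibitor of cytokine signalling chosen after its values were seen, had 223, 50.4, 88.3 and 248 normalized read counts in DekTg-1 to DekTg-4, against 216, 47.8, 110.2 and 242 in DekCon-1 to DekCon-4, high in libraries 1 and 4 of both groups.

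**Figure D5:**
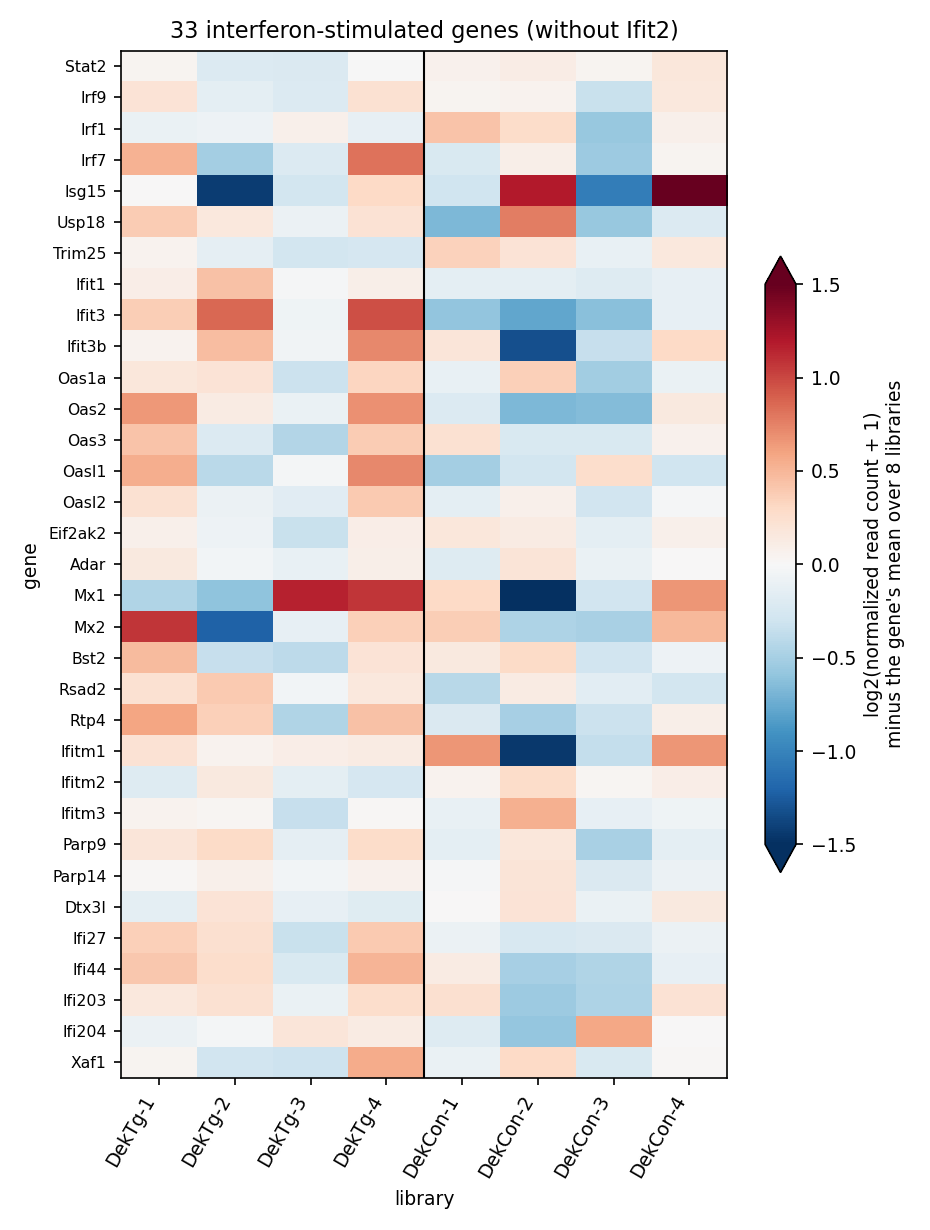
Deviation of each of the 33 members without Ifit2 from its mean over the 8 libraries, on log2(normalized read count + 1), with DekTg-1 to DekTg-4 left of DekCon-1 to DekCon-4. Red is above and blue below the mean, and the colour scale ends at 1.5 either way. DekTg-1 and DekTg-4 each have 28 members above their means, and DekTg-3 and DekCon-3 have 4 each.

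The rest of the interferon pathway gave 0 genes past limma's test in either direction. Of 21 interferon ligand genes, 14 had enough signal to be tested. Of these 14, 1 had an unadjusted limma p under 0.05, a rule that called 6.93% of all genes tested. That gene was Ifnz, a type I interferon. Ifnz had 0, 1.201, 0 and 0 normalized read counts in DekTg and 1.27, 3.83, 0.942 and 3.09 in DekCon, which is a handful of reads. Ifna4 had 19.8, 24.0, 32.0 and 15.7 in DekTg and 17.7, 10.5, 17.9 and 17.8 in DekCon, and the groups overlap. At levels this low, a difference of a few reads was not detectable.

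Of the 6 receptor genes, 5 had a log2 fold change above 0, 2 had one without DekCon-2, and 0 passed the test. Ifnar1 lay between 264 and 294 in DekTg and between 215 and 321 in DekCon, and Ifnar2 between 246 and 279 in DekTg and between 156 and 275 in DekCon. Ifngr1, the ligand-binding chain for interferon gamma, had 434, 480.5, 454 and 424 in DekTg, against 527, 790.4, 596 and 523 in DekCon. All DekTg libraries were below all DekCon libraries, and the log2 fold change of Ifngr1 came to -0.42 (SE 0.14, limma adjusted p = 0.711).

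Of 19 signalling genes, 2 had a log2 fold change above 0, with a median of -0.11. Without DekCon-2 it was 4 of 19, with a median of -0.20. Ptpn11, a tyrosine phosphatase, lay between 108 and 139 in DekTg and between 127 and 217 in DekCon, and Irf3, a factor that acts upstream of interferon transcription, between 112 and 222 in DekTg and between 211 and 240.0 in DekCon.

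Of 62 further interferon targets tested, 25 had a log2 fold change above 0, with a median of -0.09, and of 13 nucleic acid sensing genes 5 did, with a median of -0.12. The targets depended on DekCon-2, without which 34 of the 62 were above 0 and their median was 0.02, while the sensing genes had 5 of 13 and -0.09. In several targets, chosen after their values were seen, DekCon-2 stood far above the other libraries. Iigp1, an interferon-induced GTPase, had 125, 172, 114 and 130.2 in DekTg, against 108, 643, 87.6 and 109 in DekCon. Tap1, a peptide transporter of antigen presentation, had 294, 235, 279 and 377 in DekTg, against 355, 854, 320.4 and 359 in DekCon. Phf11d had 59.3, 51.6, 46.6 and 53.5 in DekTg, against 35.5, 24.9, 42.4 and 34.7 in DekCon, without overlap (log2 fold change 0.62, limma adjusted p = 0.711). Psmb10, a subunit of the immunoproteasome, lay between 92.5 and 189 in DekTg and between 155 and 276 in DekCon. Ly6a, which encodes the sort marker Sca-1 and is an interferon target, lay between 178 and 247 in DekTg and between 110.0 and 248 in DekCon. Cgas, the sensor of cytosolic DNA, lay between 84.1 and 107 in DekTg and between 106 and 176 in DekCon, and Zc3hav1, an antiviral zinc finger protein, between 551 and 898 in DekTg and between 736 and 998 in DekCon.

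Markers of other cell types were present beside these genes. Plasmacytoid dendritic cells are a main source of type I interferon, and 0 of their 10 markers passed the test. The summed level of the 10 lay between 1367 and 1581 in DekTg and between 1206 and 1599 in DekCon. Most of this sum was Tcf4 (mean 803 in DekTg and 792 in DekCon) and Runx2 (351 and 343). The sum includes Bst2, itself one of the 34 members, and says little about the smaller markers. Siglech lay between 41.7 and 44.4 in DekTg and between 33.9 and 46.9 in DekCon. Of the 10, 7 had a log2 fold change above 0, or 6 without DekCon-2. The 16 B and plasma cell markers summed to 5219 to 6069 in DekTg and 1180 to 2027 in DekCon. Most of the gap between the sums was Ighm (mean 2834 ± 535 in DekTg and 358 ± 243 in DekCon) and Igkc (1496 ± 370 and 197 ± 104). Xbp1, the next in size in DekTg, averaged 457 ± 11.2 in DekTg and 486 ± 57.8 in DekCon (SD, n = 4 each). Of the 16, 2 passed the test, Jchain and Igkc, both higher in DekTg, by a rule that called 0.0347% of all genes tested. Jchain, Igkc and the globin genes below were known from earlier results of these data to differ when the lists were made. Their passing is therefore a description and not independent evidence. A log2 fold change above 0 was seen in 13 of the 16, or 12 without DekCon-2, while Igll1 had -0.35. Of 11 erythroid markers 3 passed, the globin genes Hba-a1, Hba-a2 and Hbb-bs, all higher in DekTg. Of the 11, 8 had a log2 fold change above 0, or 9 without DekCon-2. Those below 0 with all libraries were Epor (-1.06), Klf1 (-0.89) and Car1 (-0.0041). The list summed to 684 to 1061 in DekTg and 239.6 to 1799 in DekCon, where Car1 had 54.5, 1160, 946 and 61.7 in DekCon-1 to DekCon-4. Of 7 megakaryocyte markers 0 passed and 0 had a log2 fold change above 0 (median -0.73, and -0.46 without DekCon-2), with sums of 2220.3 to 3701 in DekTg and 2941 to 10284 in DekCon. Of 13 neutrophil markers 0 passed and 1 was above 0 (median -0.43), with sums of 2440.0 to 17742 in DekTg and 4437 to 11435 in DekCon. Within DekTg, each of these 13 markers was highest in DekTg-3, which gave the top of that range. S100a8, named after its values were seen, had 4181 in DekTg-3, against 98.7 to 592 in the other DekTg libraries. The 13 monocyte and macrophage markers and the 13 T and NK markers gave 0 past the test. Of the monocyte and macrophage markers 9 were above 0, or 5 without DekCon-2, and of the T and NK markers 8 were. No listed marker of these types was at 0 in all libraries. Their part in the members' values was not tested.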

How the data were processed

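RNA of sorted stem cells was sequenced in 4 DekTg and 4 DekCon libraries after Geo-seq amplification and tagmentation, per the labels' protocols. The submitters' processing notes name build mm10, HTSeq, DESeq2, Cufflinks 2.1.1 and Bowtie 0.12.9. The part each tool played, the annotation and any use of strand were not given in the sources used here. A deposited value is a signal that the table's name calls FPKM, yet 99.99% of values (tolerance 0.001 reads) are whole multiples of 1 step per library. They were therefore read as counts over a size factor, and the log-scale test planned for FPKM was kept. The control columns are spelled DenCon in the table and were matched to DekCon by number.

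Genes with a value of at least 1 in 4 or more of the 8 libraries were tested by limma 3.58.1 (trend on, R 4.3.3) on log2(value + 1), two-sided, with no covariates. P-values were adjusted by Benjamini-Hochberg over every gene tested, with 0.05 as the threshold. Fold changes on that scale understate those of low genes. As alternatives, edgeR 4.0.16 and DESeq2 1.42.0 were run on recovered reads, leaving out the 6 genes with values that were not whole, and the pseudocount, filter, scaling, trend, replicate block and left-out libraries were varied. The scripts were tested on simulated data.

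Values in every library are given for Ifit2, the 12 members of smallest p and 10 members of known role, and ranges for the rest. Of each other pathway list, the 2 genes of smallest p and a few fixed genes are named, apart from 1 gene that is not reported here. The members and lists were chosen with earlier results of these data known, so no p-value was adjusted over a list alone. Positions are from GENCODE M21 on GRCm38, and copies were compared by transcript instead of the planned protein comparison.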

Additional observations from a re-analysis of the deposited data

Results flagged for a closer look

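In 5 of the 68 groups of 4 libraries examined (34 members in each genotype), 1 library lay far from the other 3 by Dixon's ratio, the gap to the nearest library divided by the range, above its critical value for 4 values. Chance alone gives about 1 in 20 such groups. The listed Ifit2 value of 108.1 in DekTg-2, the only one of the gene that is a whole number of reads, lay below the nearest DekTg library at 165.0 (ratio 0.884). The listed Ifit2 value of 19.87 in DekCon-1 lay above the nearest DekCon library at 14.16 (ratio 0.916). Dtx3l in DekTg-2 was 409.6, above the nearest DekTg library at 326.1 (ratio 0.873). Ifitm3 in DekTg-3 was 759.9, below the nearest DekTg library at 980.6 (ratio 0.905). Ifitm3 in DekCon-2 was 1398, above the nearest DekCon library at 925.4 (ratio 0.924).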

How the results depend on the processing

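The count of members past the threshold was 1 with Ifit2 as listed under the other pseudocount, filters, scalings, the fit without a trend, the replicate block, libraries 1 and 4 averaged and each left-out library. It was 0 without Ifit2, 0 with Ifit2 shifted to whole reads, 0 without the 6 genes and 0 with edgeR and with DESeq2, where Ifit2 was not entered. Leaving out the 6 genes, shifting Ifit2 and taking the gene lists without DekCon-2 were chosen after seeing the data. At an unadjusted p under 0.05, limma had 5 members without Ifit2. The log2 fold change of Ifit2 was 3.17 to 3.39 in the alternatives that use the listed values (limma adjusted p 1.25e-07 to 0.00779) and -0.46 after the shift. The count over all genes, 13, was 4 without a trend and 13 to 22 when 1 library was left out, 22 being without DekTg-2. The causes of these changes were not tested. The count was 8 without the 6 genes, all 8 among the 13, and calls among the 6 genes could not recur there. With the replicate block it was 15, and 1 member passed as without the block; deviations of same-numbered libraries correlated at 0.022, 0.026, 0.027 and 0.123, not above 0.1 in every pair, and DekTg-2 correlated more with DekCon-3 (0.188) than with DekCon-2, so the numbers were not taken to pair libraries. Libraries 1 and 4 were alike in both groups, and what they share was not given in the labels. The median of the 33 members without Ifit2 was above 0 in every alternative run, between 0.084 and 0.26. Of 46 genes followed, 34 kept their direction and their side of the threshold in every alternative run and 12 changed sign, among them Ifit2 and Ifitm1. Leaving out 1 library gave -0.010 to 0.12 for Adar, -0.19 to 0.10 for Bst2, -0.080 to 0.31 for Ifi204, -0.20 to 0.50 for Ifitm1, -0.18 to 0.038 for Ifitm3, -0.097 to 0.094 for Ifnar1, -0.32 to 0.016 for Irf1, -0.067 to 0.11 for Irf9, -0.30 to 0.46 for Mx2, -0.043 to 0.25 for Oas3 and -0.18 to 0.11 for Xaf1. Quantile normalization gave 0.025 for Bst2, 0.036 for Ifitm3 and -0.055 for Mx2, edgeR gave 0.015 and DESeq2 0.012 for Bst2, and averaging libraries 1 and 4 gave -0.0099 for Adar, -0.031 for Mx2 and -0.11 for Xaf1. With 4 libraries a group and members at 1 to a few reads (Isg15, Mx1, Mx2), small differences could not be detected at this depth.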
